A study of Mus musculus with 95 samples.

Results

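The effect of the zQ175 knock-in on small RNA was compared between striatum and cortex in mice of the line from which the neo cassette had been deleted (neo-deleted). The comparison used 31 of the study's 95 libraries, chosen by their labels alone. They came from striatum of 7 knock-in (KI) and 8 wild type (WT) mice and from cortex of 8 KI and 8 WT mice. KI mice were heterozygous for Z_Q175 (neo-), and WT mice were their littermates; all carry the strain label CHDI-81003019 and the background C57BL6/J. All mice were 6 months old, and both tissues came from the left side of the brain. Each group held 4 males and 4 females, except KI striatum with 3 males and 4 females. The libraries came from 16 animals, of which 15 gave both tissues. The same tissues of the line with the cassette intact (neo-intact, CHDI-81003003), with 8 heterozygous z_Q175 KI and 8 WT mice per tissue, were used as a second set of animals.

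The zQ175 allele is a huntingtin knock-in allele with an expanded CAG repeat, the mutation that causes Huntington's disease. The projection neurons of the striatum are the cells the disease affects most, and cortical neurons, many of which project to the striatum, are affected as well. The neo cassette is a drug-resistance gene used to select targeted cells, and deleting it removes its possible influence on the allele. MicroRNAs are short RNAs cut from hairpin precursors that lower the stability and translation of the messenger RNAs they pair with. Whether a KI effect differs between striatum and cortex is asked here as an interaction, the log2 change in KI against WT striatum minus the log2 change in KI against WT cortex. A negative interaction therefore means that the KI level, relative to WT, was lower in striatum than in cortex.

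Each feature carries an identifier of the form MI and 7 digits. The features were taken as hairpin entries of the human miRBase set, although the animals are mice. How mouse reads were assigned to human entries is not given, and its effect on the levels was not tested. The sources used here pair no identifier with a name, position or sequence. Features are therefore given by identifier and by the length implied by the ratio of counts to FPKM. For the same reason no list of named microRNAs, including those that mark glia, blood, vessels or choroid plexus, could be applied. MI0000274 (109 nt) separated the labelled tissues without overlap: it had 1077 to 6096 CPM (counts per 1000000 after TMM scaling) in the 15 striatal libraries and 33.2 to 193 CPM in the 16 cortical ones. Its tissue preference is known only from this study, so this is no independent check of the labels. Huntingtin messenger RNA is outside what these libraries measure, so the genotype labels were not checked against it.

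The labels also hold an L number for each library, whose meaning they do not give. The 16 libraries with L number 8 (L8) had 297046 to 496035 counts, with a median of 417635. The other 15, which were L7 in striatum and L1 in cortex, had 106351 to 164218, with a median of 124029. L8 libraries made up 4 of 7 KI and 4 of 8 WT striatal libraries, and 5 of 8 KI and 3 of 8 WT cortical libraries. Levels of several features described here differed between L8 and other libraries within a group, so the L number entered the fit as a covariate beside sex, and L8 and other libraries are also given apart. Of the 368 features with a count, 212 passed the filter on low counts, and these held 99.9% of the counts. P-values are from edgeR's quasi-likelihood test, adjusted by Benjamini-Hochberg over all features tested, and a feature with an adjusted p under 0.05 is said to be called.

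Of the 212 features, 4 (1.89%) were called for the interaction. In all of them the KI level relative to WT was lower in striatum than in cortex. They were MI0002468, MI0000288, MI0000261 and MI0000449. At an unadjusted p under 0.05 there were 27 features, 18 with a negative and 9 with a positive interaction. The median interaction over all 212 features was -0.02 on the log2 scale, and 51.9% of them were below 0. The split by direction depended on the scaling. With DESeq2's size factors in edgeR, 1 feature was called higher and 2 lower, and with scaling by total counts 2 were called higher and 4 lower. With the animal as a block, which uses the pairing of the tissues in 15 animals, 1 feature (0.472%) was called, MI0002468. Since these are whole tissue pieces, fewer cells of a type and less RNA per cell cannot be told apart.

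MI0002468 (79 nt) had the largest interaction of the 4. In KI striatum it had 383, 480 and 553 CPM (lowest, median and highest), against 589, 691 and 758 CPM in WT striatum. In KI cortex it had 359, 423 and 602 CPM, against 328, 378 and 537 CPM in WT cortex. All 7 KI striatal libraries lay below all 8 WT striatal libraries, while the cortical groups overlapped and the KI mean was the higher. The log2 change was -0.57 in striatum (SE 0.10, adjusted p = 0.000167) and 0.22 in cortex (SE 0.10, adjusted p = 0.741, unadjusted 0.0406). The cortical change, of the opposite sign, thus adds to the interaction. The interaction was -0.79 (SE 0.14, adjusted p = 0.00136), and with the animal as a block it was -0.81 (adjusted p = 0.0279). It stayed called without each of the 31 libraries in turn, with values from -0.88 to -0.65.

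MI0000261 (68 nt) changed in striatum and not detectably in cortex. KI striatum had 1651, 1799 and 2181 CPM, against 2342, 2560 and 2839 CPM in WT striatum. KI cortex had 673, 816 and 1038 CPM, against 704, 820 and 999 CPM in WT cortex. Every KI striatal library lay below every WT striatal library, and the cortical groups covered nearly the same range. The log2 change was -0.45 in striatum (SE 0.08, adjusted p = 0.000193) and 0.01 in cortex, with a 95% interval of -0.16 to 0.18. The interaction was -0.46 (SE 0.12, adjusted p = 0.0247), and it was not called with the animal as a block (-0.46, adjusted p = 0.155).

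MI0000288 (110 nt) and MI0000449 (101 nt) were lower in KI striatum and had lower KI means in cortex too. MI0000288 had 674, 946 and 1151 CPM in KI striatum, against 1282, 1650 and 1964 CPM in WT striatum. It had 1381, 1702 and 2626 CPM in KI cortex, against 1737, 2349 and 3003 CPM in WT cortex. The striatal groups did not overlap, and 5 of 8 KI cortical libraries lay below all WT cortical libraries. Set against WT cortical libraries of the same kind, 5 of 5 KI libraries did so within L8 and 1 of 3 outside L8. The log2 change was -0.79 in striatum (SE 0.08, adjusted p = 2.74e-08) and -0.27 in cortex (SE 0.08, adjusted p = 0.291, unadjusted 0.00175). The interaction was -0.52 (SE 0.11, adjusted p = 0.00608), and with the animal as a block -0.53 (adjusted p = 0.0789). It was not called without KI striatum F3 (-0.46, adjusted p = 0.0780) or without WT striatum F3 (-0.48, adjusted p = 0.0562).

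MI0000449 had 2936, 3355 and 3686 CPM in KI striatum, against 4171, 5421 and 6321 CPM in WT striatum. It had 5137, 6082 and 7513 CPM in KI cortex, against 5130, 6922 and 9494 CPM in WT cortex. The striatal groups were again apart, and the cortical groups overlapped, with 7 of 8 KI libraries below the WT mean. Set against WT cortical libraries of the same kind, 4 of 5 KI libraries lay below all WT ones within L8 and 0 of 3 outside L8. The log2 change was -0.71 in striatum (SE 0.08, adjusted p = 2.21e-07) and -0.26 in cortex (SE 0.08, adjusted p = 0.291, unadjusted 0.00293). The interaction was -0.45 (SE 0.11, adjusted p = 0.0247), and with the animal as a block -0.50 (adjusted p = 0.155).

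The calls of MI0000261 and MI0000449 were each lost without any of 14 libraries, with the direction kept. For MI0000261 the value then lay between -0.44 and -0.33, with an adjusted p of 0.0525 to 0.117. For MI0000449 it lay between -0.42 and -0.34, with an adjusted p of 0.0512 to 0.117. The libraries common to both were KI striatum M3 and F3, WT striatum F1, F2, F3 and M3, KI cortex M2 and F2, and WT cortex F1, F4, M1, M2 and M4. WT striatum F4 was a further one for MI0000261, and WT cortex F2 for MI0000449.

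**Figure D1:**
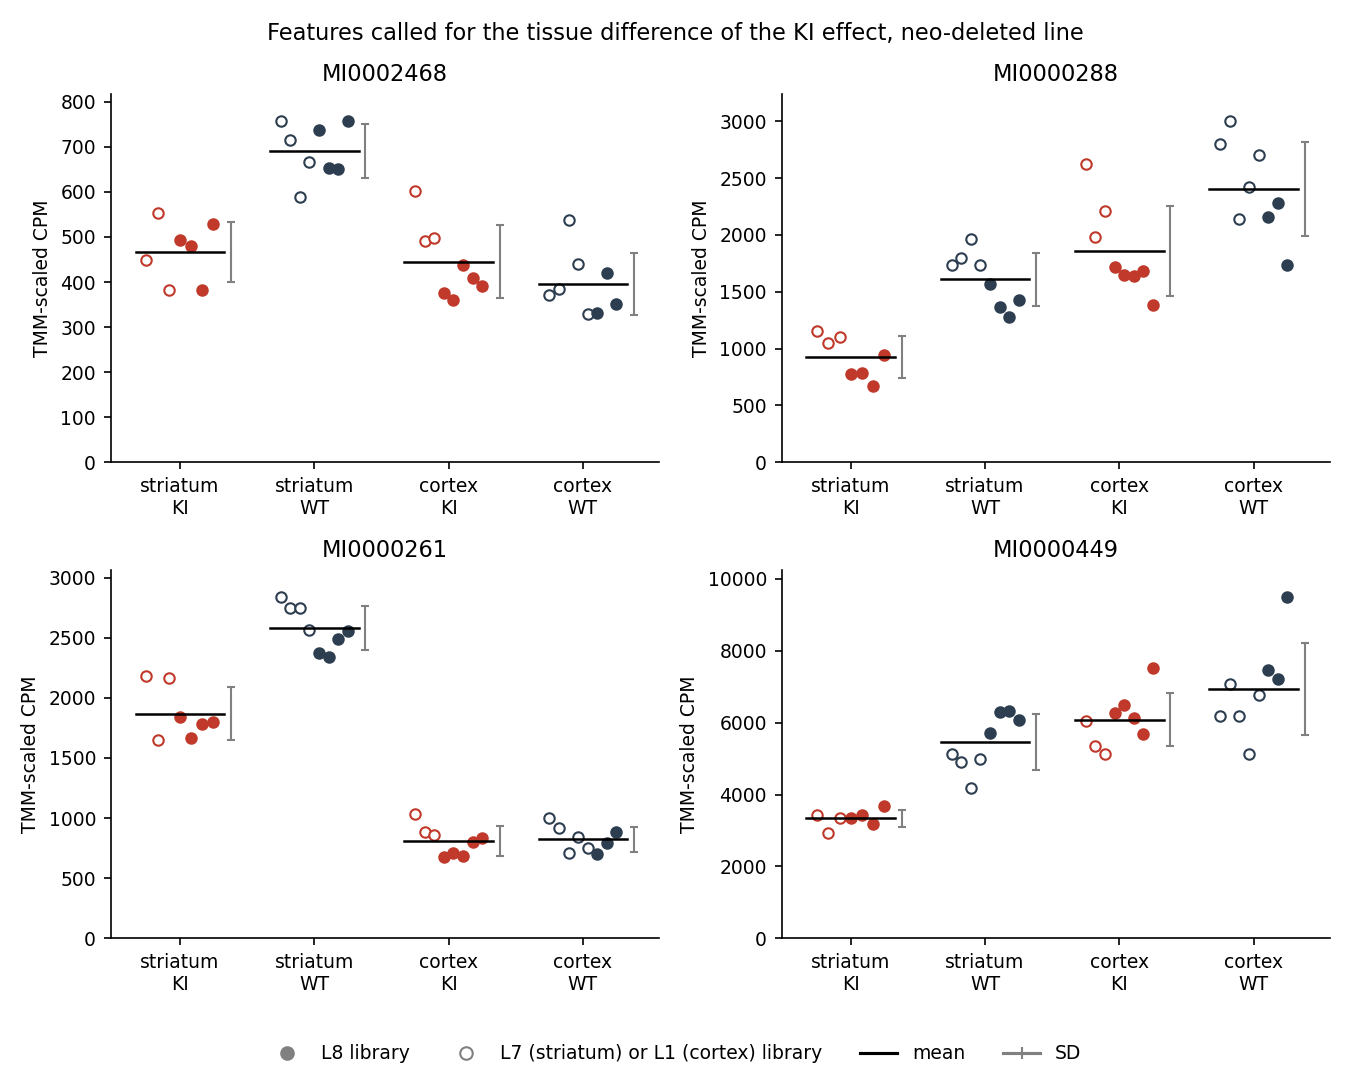
TMM-scaled CPM of the 4 called features in each neo-deleted library (points), by tissue and genotype, with the mean (line) and SD (bar); filled points are L8 libraries. In every panel the 7 KI striatal points lie below the 8 WT striatal points, while KI and WT cortical points overlap.

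The 4 features did not share a tissue preference. In WT mice of the neo-intact line, MI0002468 was higher in striatum than in cortex by 0.75 on the log2 scale (adjusted p = 4.66e-05) and MI0000261 by 1.68 (adjusted p = 6.51e-10). MI0000288 was lower in striatum, with a log2 difference of -0.44 (adjusted p = 0.0121), as was MI0000449, with -0.32 (adjusted p = 0.00122). In the KI mice of the neo-deleted line, the means of MI0002468 were 467 ± 66.7 CPM in striatum and 445 ± 80.8 CPM in cortex (SD, n = 7 and 8). In WT mice they were 691 ± 60.2 CPM in striatum and 396 ± 69.7 CPM in cortex (SD, n = 8 each). The KI means of the tissues thus lay within 1 SD of each other, and the WT means did not.

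Within the L8 libraries, which share 1 L number across both tissues, no feature of 225 (0%) was called for the interaction by edgeR, with 49 at an unadjusted p under 0.05 and a smallest adjusted p of 0.0828. DESeq2 called 21 of them in the same libraries, 11 higher and 10 lower. Leaving out WT cortex F1, 1 of only 3 WT cortical L8 libraries, moved the edgeR count to 23. Leaving out KI cortex F1 or KI cortex F3 gave 1 call each. The 4 features kept their direction: MI0002468 was at -0.70 (SE 0.17, adjusted p = 0.0828), MI0000288 at -0.52 (SE 0.17, adjusted p = 0.129), MI0000449 at -0.48 (SE 0.14, adjusted p = 0.117) and MI0000261 at -0.32 (SE 0.11, adjusted p = 0.129). Within L8, each of the 4 KI striatal libraries lay below each of the 4 WT ones for all 4 features.

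In the 15 libraries outside L8, the interaction was also called for no feature of 181 (0%), with 11 at an unadjusted p under 0.05 by edgeR, and DESeq2 called 0. MI0002468 was at -0.87 (SE 0.27), MI0000261 at -0.56 (SE 0.18) and MI0000288 at -0.48 (SE 0.15), each with an adjusted p of 0.281. MI0000449 was at -0.36 (SE 0.16, adjusted p = 0.708). For each of the 4, the 3 KI striatal libraries outside L8 lay below the 4 WT ones. The L8 libraries and the others gave the same sign for all 4 features, and edgeR called none of them in either set on its own. The 4 were chosen in a fit of both sets together. Their shared sign and the separation of the striatal groups in each set follow largely from that choice and are no independent support. Outside L8, striatal libraries were L7 and cortical ones L1, so tissue and L number cannot be told apart there.

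**Figure D2:**
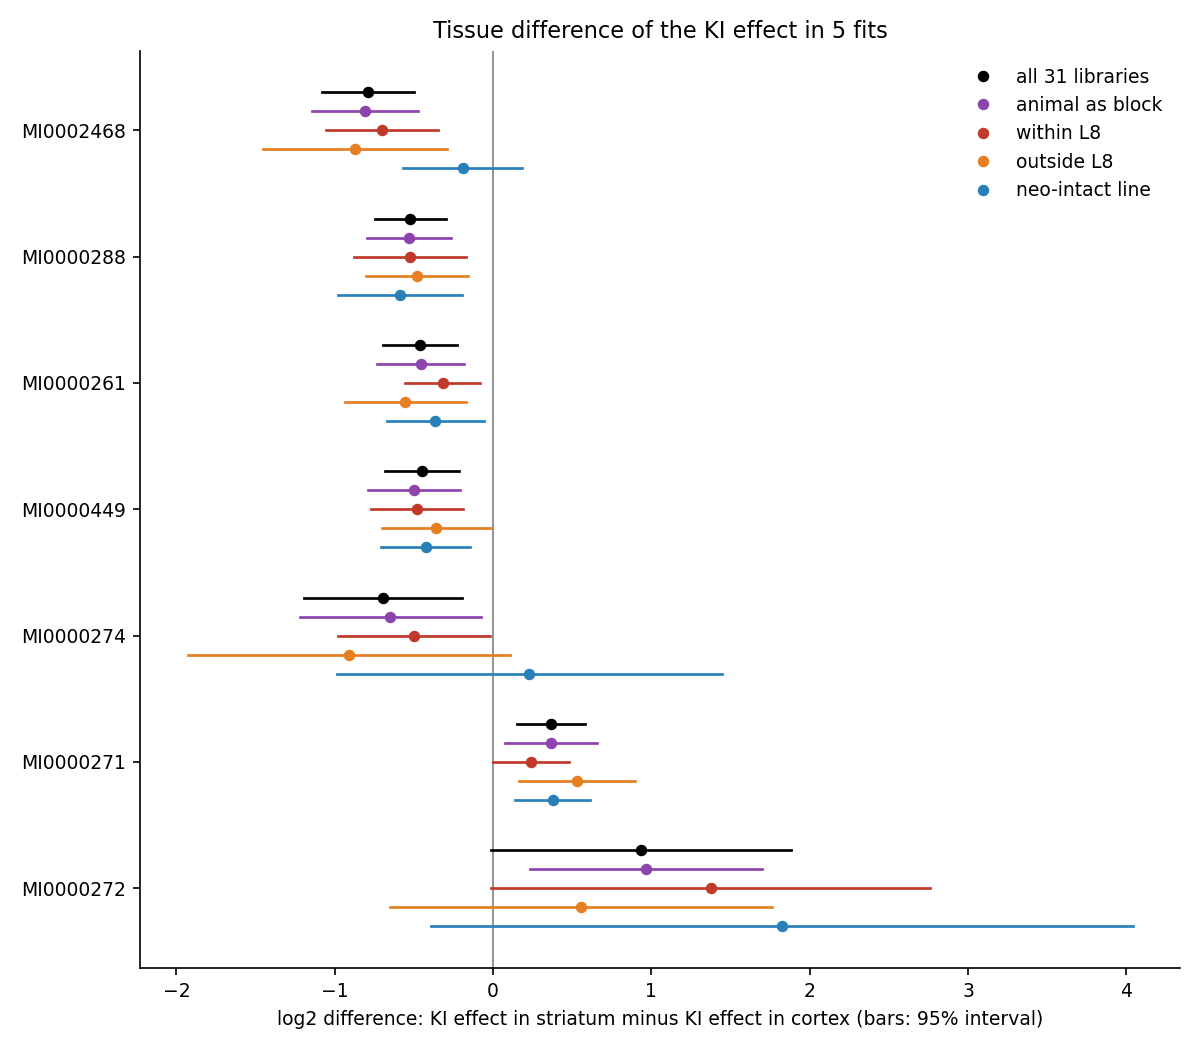
Log2 difference of the KI effect (striatum minus cortex) with its 95% interval for the 4 called features and 3 further ones, in 5 fits. MI0002468 lies between -0.87 and -0.70 in the 4 neo-deleted fits and at -0.19 in the neo-intact line, and MI0000288 lies between -0.59 and -0.48 in all 5.

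Each tissue's own KI effect came from the same fit. In striatum there were 15 calls among the 212 features (7.08%), of which 4 (1.89%) were higher and 11 (5.19%) lower in KI mice. Their log2 changes ran from -0.99 to 0.45, and 38 features had an unadjusted p under 0.05. Within L8 there were 10 striatal calls among 225 features (4.44%) and outside L8 7 among 181 (3.87%). With DESeq2's size factors in edgeR, the striatal calls were 6 higher and 10 lower. In cortex edgeR called 0 (0%), with 13 features at an unadjusted p under 0.05 and a smallest adjusted p of 0.291, while DESeq2 called 2, both lower. The 4 features called for the interaction were all among the 11 lower in striatum. Of the 15 striatal calls, 13 had the same sign in cortex, against 54.2% of all 212 features. Their cortical log2 changes ran from -0.29 to 0.22, and 3 had an unadjusted cortical p under 0.05. That the change was larger in striatum for all 15 follows from choosing them there.

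**Figure D3:**
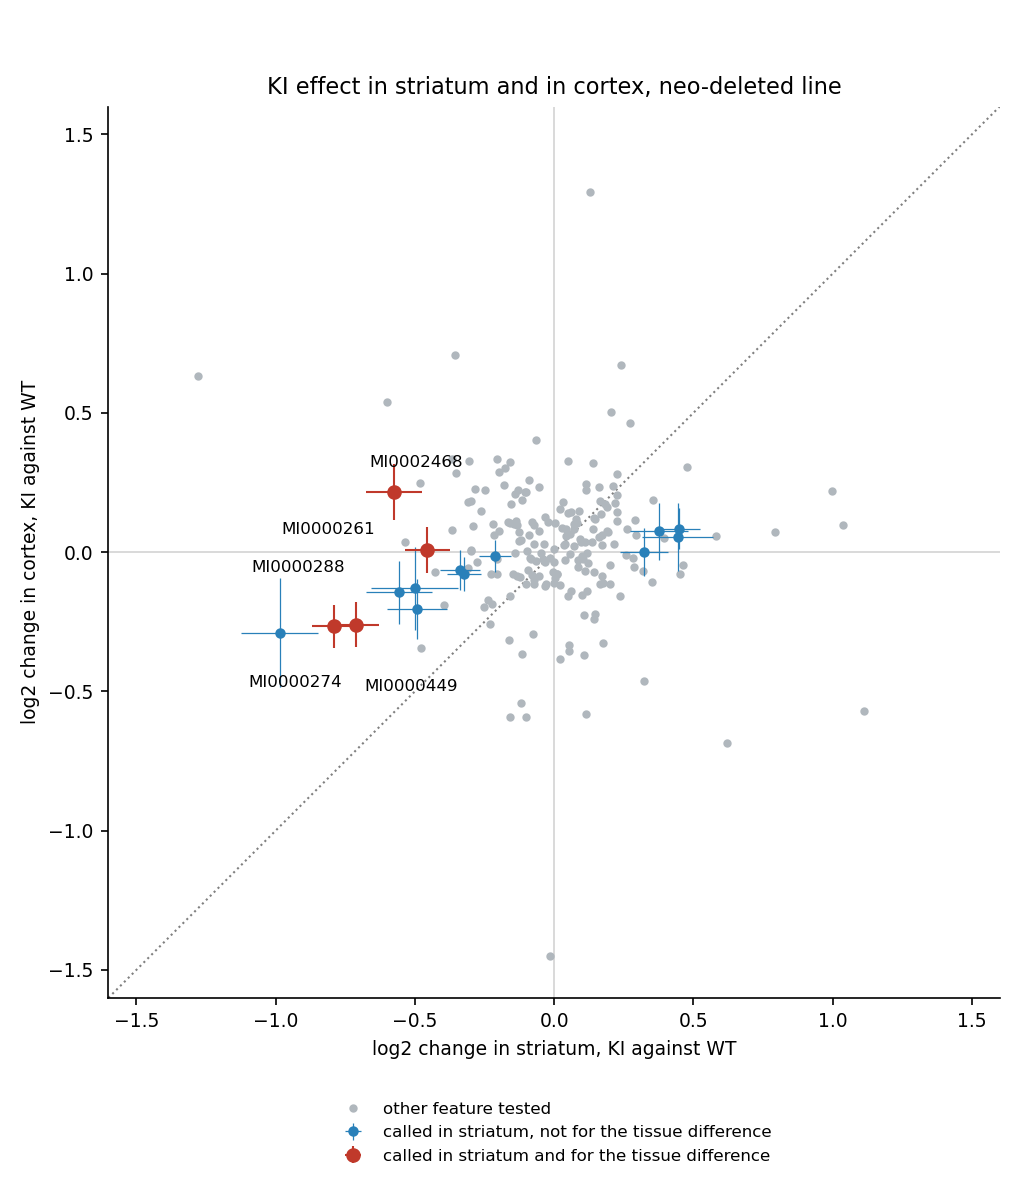
Log2 change in KI against WT cortex (vertical) plotted against that in KI against WT striatum (horizontal) for 212 features, with SE bars for those called in striatum; 1 feature lies outside the axes, and the dotted line marks equal changes. The 15 striatal calls spread from -0.99 to 0.45 along the horizontal axis and from -0.29 to 0.22 along the vertical one.

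MI0000274, MI0000271 and MI0000272 were followed because earlier results of these data had singled them out. MI0000274 had 1077, 1223 and 3110 CPM in KI striatum, against 1944, 3614 and 6096 CPM in WT striatum. Its level in cortex was far lower, at 33.2, 53.4 and 95.1 CPM in KI and 43.6, 66.2 and 193 CPM in WT mice. Over all libraries the striatal groups overlapped, but within L8 and outside L8 all KI libraries lay below all WT ones. The striatal change was -0.99 (SE 0.14, adjusted p = 8.65e-06) and the cortical one -0.29 (SE 0.20, adjusted p = 0.760) on the log2 scale. The interaction of -0.70 had an SE of 0.24 and was not called (adjusted p = 0.211). Its 95% interval ran from -1.20 to -0.20. In neo-intact mice the striatal change of MI0000274 was -1.08 (SE 0.33, adjusted p = 0.0446), called there as well. Its cortical change in that line was -1.31 (SE 0.51, adjusted p = 0.399), with WT cortical libraries from 24.4 to 555 CPM. The neo-intact interaction was therefore 0.23 (SE 0.59), of the opposite sign and not called (adjusted p = 0.982).

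MI0000271 (110 nt) was higher in KI striatum, with 2827, 3454 and 3621 CPM, against 1653, 2500 and 3152 CPM in WT striatum. In cortex it had 4630, 5537 and 6191 CPM in KI and 3966, 4741 and 6082 CPM in WT mice. In striatum, 5 of 7 KI libraries lay above all WT libraries, and within L8 and outside L8 all of them did. The log2 change was 0.45 in striatum (SE 0.07, adjusted p = 8.08e-05) and 0.08 in cortex (SE 0.07, adjusted p = 0.760). The interaction of 0.37 (SE 0.10) missed the threshold at an adjusted p of 0.0650. It passed under 8 of 16 other settings and in 25 of 31 fits that left out a library, where it lay between 0.35 and 0.47 with an adjusted p of 0.00942 to 0.0436. With the animal as a block it was 0.37 and not called (adjusted p = 0.283). Nor was it called within L8 (0.24, SE 0.11, adjusted p = 0.228) or outside L8 (0.53, SE 0.17, adjusted p = 0.281). In neo-intact mice it was 0.38 (SE 0.12, adjusted p = 0.227). The feature's estimated counts were not whole in 29% of libraries, and why was not tested.

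MI0000272 varied widely between libraries. KI striatum had 550, 1077 and 4929 CPM, against 339, 822 and 2383 CPM in WT striatum. KI cortex had 409, 1898 and 13794 CPM, against 1311, 3000 and 7537 CPM in WT cortex. In both tissues the L8 libraries were the lower ones, with KI striatal means of 869 CPM in L8 and 3886 CPM elsewhere, against WT striatal means of 483 and 1707 CPM. The interaction was 0.94 (SE 0.46, adjusted p = 0.352) with a 95% interval from -0.01 to 1.88.

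**Figure D4:**
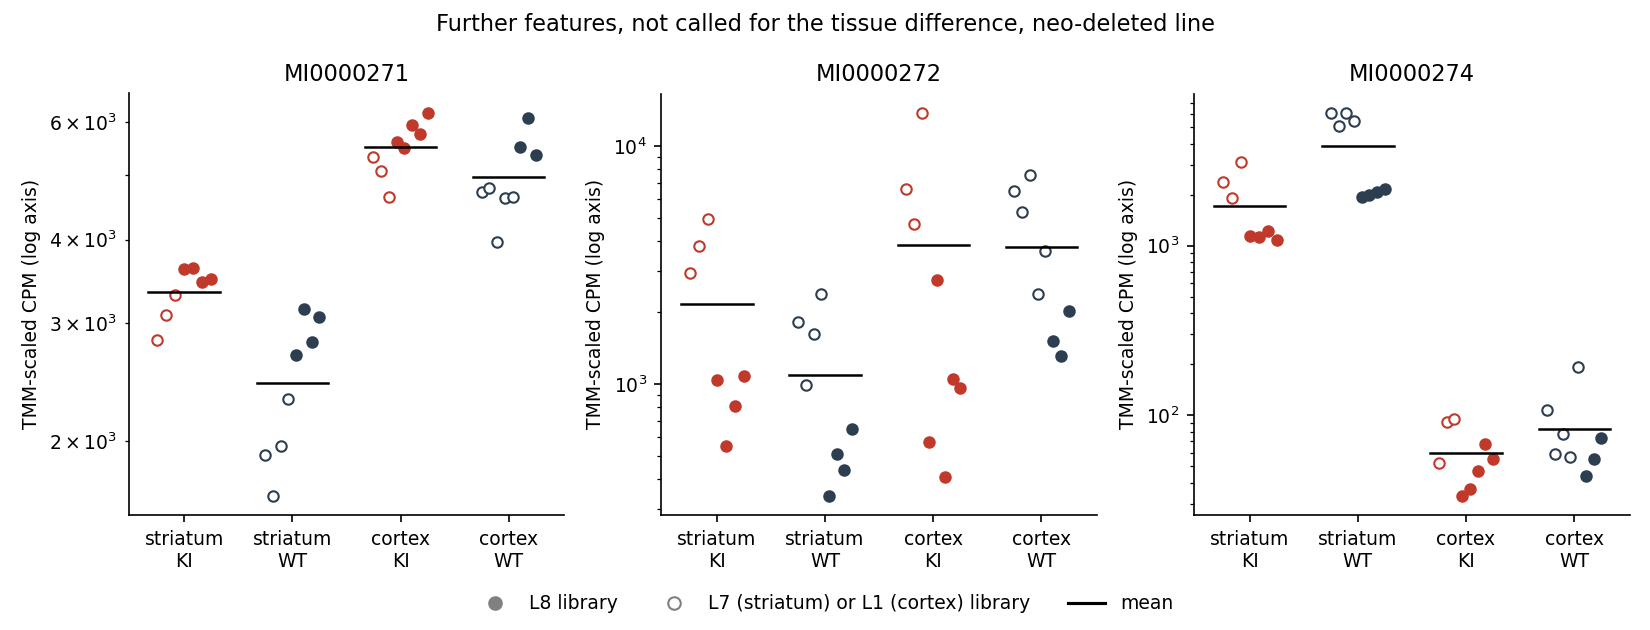
TMM-scaled CPM (log axis) of MI0000271, MI0000272 and MI0000274 in each neo-deleted library, by tissue and genotype, with the mean as a line; filled points are L8 libraries. MI0000274 has 1077 to 6096 CPM in striatum and 33.2 to 193 CPM in cortex, and in each striatal group L8 libraries of MI0000272 and MI0000274 lie below the others.

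The same interaction was fitted in the neo-intact line, in other animals. Of 186 features, 1 (0.538%) was called, MI0000786 (66 nt), and 15 had an unadjusted p under 0.05. The striatal KI effect gave 11 calls (5.91%) and the cortical one 0 (0%) in that line, where 17 features had an unadjusted cortical p under 0.05. None of the 4 features called in neo-deleted mice was called there. MI0000288 had an interaction of -0.59 (SE 0.19, adjusted p = 0.227), MI0000449 of -0.42 (SE 0.14, adjusted p = 0.227) and MI0000261 of -0.36 (SE 0.15, adjusted p = 0.394). These values lay within 1 SE of the neo-deleted ones. MI0002468 was at -0.19 (SE 0.18, adjusted p = 0.849). In that line it had 500 ± 62.7 CPM in KI striatum and 672 ± 91.2 CPM in WT striatum, and 344 ± 58.5 CPM in KI cortex and 387 ± 32.2 CPM in WT cortex (SD, n = 8 each). Its striatal change was called in neo-intact mice as well (-0.38, SE 0.11, adjusted p = 0.0430), and its cortical change was -0.19 (SE 0.14, adjusted p = 0.660).

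The difference of the interaction between the lines was itself tested in 1 fit of all 8 brain groups. No feature of 194 (0%) was called by edgeR, with 20 at an unadjusted p under 0.05. For MI0002468 the difference was -0.68 (SE 0.23, unadjusted p = 0.00448, adjusted p = 0.414). For MI0000288 it was 0.02, with a 95% interval from -0.36 to 0.39. In the neo-intact line the L number was tied to genotype in both tissues, in opposite directions. In striatum 5 of 8 KI and 1 of 8 WT libraries were L8, and in cortex 0 of 8 KI and 4 of 8 WT libraries. The KI cortical libraries were all L1. WT cortex M1 was the sole L2 library, and with an L term to itself it added nothing to the estimated KI effect. The striatal calls, the cortical KI effect and the interaction of that line therefore all rest on the L covariate. Without that covariate 103 features were called for the neo-intact interaction.

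MI0000786 was named after its values were seen, as the only neo-intact call. In neo-deleted mice it had 2158, 2590 and 2733 CPM in KI striatum, against 2836, 3216 and 3448 CPM in WT striatum, with no overlap. It had 1371, 1548 and 1923 CPM in KI cortex, against 1418, 1611 and 1882 CPM in WT cortex. The interaction was -0.27 (SE 0.10, adjusted p = 0.243) in neo-deleted and -0.54 (SE 0.13, adjusted p = 0.0347) in neo-intact mice. The neo-intact call was lost with the animal as a block and with DESeq2's size factors in edgeR, where 0 features were called. Its estimated counts were not whole in 77.4% of libraries.

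Features were also grouped by their tissue preference in WT mice of the neo-intact line (adjusted p under 0.05, log2 difference of at least 1). Of the 9 striatum-enriched features, 1 was called lower for the interaction (MI0000261) and 6 were below 0, with a median of -0.17. Of the 13 cortex-enriched features, 0 were called and 4 were below 0, with a median of 0.06. Over all 212 features, 4 (1.89%) were called and 51.9% were below 0, with a median of -0.02. Lists of 9 and 13 features are too short for their counts of called features to be set against that share.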

How the data were processed

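Per the labels' protocols, enriched fractions of total RNA from flash-frozen tissue were made into Illumina libraries. The submitters' processing notes name CASAVA 1.8.2 and mm10. The aligner and the counting method are not given in the sources used here. The deposited tables hold estimated counts and FPKM per feature (1881 features). Counts were rounded and fitted with edgeR 4.0.16 in R 4.3.3, with TMM scaling, filterByExpr (minimum count 10, minimum total 15), and sex and L number as covariates. Estimates within 0.005 of an integer were taken as whole. FPKM entered only an alternative with limma 3.58.1 (log2 of FPKM plus 1) and the implied lengths; DESeq2 1.42.0 was another alternative. CPM are TMM-scaled.

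Named features are those called for the interaction or within L8, plus MI0000274, MI0000288, MI0000271 and MI0000272. Members and lists were chosen with earlier results of these data known. Replicates are separate animals by their identifiers. Tissues were paired by the animal identifier in the labels. Deviations from a fit of group, sex and L number correlated at a median of -0.0524 over 15 pairs (-0.397 to 0.137), 1 of them over 0.1. The median with the cortex of other animals was 0.00326, and 0 of 15 striatal libraries correlated best with the cortex of their own animal. The pairing thus rests on the labels alone. The fit with the animal as a block gave 1 call, against 4 without it.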

Additional observations from a re-analysis of the deposited data

Results flagged for a closer look

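Without an animal block, the interaction test in the neo-deleted line called a different KI effect in striatum than in cortex for 4 features. They were MI0002468 (-0.79), MI0000288 (-0.52), MI0000261 (-0.46) and MI0000449 (-0.45, all log2, edgeR). For each, the KI level relative to WT was lower in striatum than in cortex, and the striatal groups did not overlap. With the animal as a block, MI0002468 alone was still called (adjusted p = 0.0279), with MI0000288 at 0.0789 and MI0000261 and MI0000449 at 0.155. In the neo-intact line the same test called MI0000786 (-0.54), with all 8 KI striatal libraries below all 8 WT ones. That call was lost with the animal as a block and with DESeq2's size factors. The lack of overlap of striatal groups follows largely from choosing features by this test. Its share over all features tested was not counted.

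A library far from the others of its group was found in 2 of 32 groups of feature, tissue and genotype looked at, where chance gives about 1 in 20. That rate is only a rough guide, as each group pooled L8 and other libraries. In KI cortex the mean of MI0000272 was 1148.5 CPM within L8 and 8362 CPM outside L8. For MI0000272, KI cortex M3 had 13794 CPM, against 6580 CPM in the next highest KI cortical library. For MI0000274, WT cortex M4 had 193 CPM, against 107 CPM in the next highest WT cortical library; these values rest on 20 and 13 counts. Both are L1 libraries. Without KI cortex M3, 7 features were called for the neo-deleted interaction instead of 4. The part of any technical difference in these results was not tested.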

How the results depend on the processing

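The number of features called for the neo-deleted interaction (4) became 1 without the filter on low counts, 7 with limma voom, 1 without the L number, 1 with the animal as a block and 0 with that block and no L number. Leaving out 1 library gave 1 to 7: 7 without KI cortex M3, 2 without KI striatum M3, and 1 without KI striatum F3 or WT striatum F3. MI0002468 kept its call in 13 of 16 neo-deleted settings, MI0000288 in 10, MI0000261 in 9 and MI0000449 in 9, and none of the 7 features named by rule changed sign in any of the neo-deleted settings. Calls in striatum (15) became 33 with voom and 23 with all 8 brain groups in 1 fit, and lay between 11 and 22 with a library left out. Calls in cortex (0) became 2 with total counts, DESeq2 or limma on FPKM, and lay between 0 and 3 with a library left out. Within L8 (0), DESeq2 called 21, and leaving out a library gave 0 to 23. Outside L8, every setting and left-out library gave 0. In the neo-intact line (1), the count was 103 without the L number, 0 with DESeq2's size factors and 0 with the animal as a block. The cause of these changes was not tested. With a library left out, the median interaction of all features lay between -0.05 and 0.09. The line difference, the fit of 15 animals without a block (4) and the fit with L8 or not as 1 term (5) were chosen after seeing the data. Libraries outside L8 had a median of 124029 counts, which limits features of low count such as MI0000274 in cortex.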
